A study of Mus musculus with 8 samples.

Results

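The genes described here are 10 imprinted regulators of growth. Igf2, H19, Ascl2, Tssc4, Kcnq1ot1, Cdkn1c, Slc22a18 and Phlda2 lie on distal chromosome 7, Grb10 lies on chromosome 11 and Igf2r on chromosome 17. They were picked by symbol from 21993 named gene units, with their levels in these libraries already known, so the values below describe them and no test is attached to them. All 10 were found in all 8 libraries, and all 10 were among the 11894 units that reached at least 1 FPKM in at least 2 libraries. FPKM is the number of sequenced fragments scaled to transcript length and library size.

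The study sequenced RNA of cultured mouse pluripotent cells, with 2 libraries in each of 4 groups and 8 in total. CDGC1 and CDGC6 denote separate lines grown out of early teratoma cells from newborn testes of Dnd1ter/ter mice (strain 129Sv/Dnd1ter/ter/Oct4deltaPE-GFP, which carries a green fluorescent Oct4 reporter), and both were at passages 15 to 18. Dnd1-KD cells are 129/Ola embryonic stem (ES) cells with a WT genotype label and a knockdown of Dnd1, whose RNA-binding product protects primordial germ cells. The control was the 129/Ola ES line E14tg2a with a WT genotype label, and both ES groups were at passages 10 to 12. All cells grew in DMEM with serum and LIF, the cytokine that keeps mouse ES cells undifferentiated. Each of CDGC1 and CDGC6 is a single line, and line, strain, genotype and passage cannot be told apart when either is set against the ES control. How the knockdown was made is not given in the sources used here. Whether paired libraries stem from separate cultures is not in the labels, so the p-values below cover just the variation from library to library, and that may be technical.

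The files' intervals imply 10.7 to 18.0 M fragments per library. Dnd1 was listed at 0 in the CDGC1, CDGC6 and control libraries. In the Dnd1-KD libraries it shared an entry with Hars, a histidyl-tRNA synthetase gene, at 57.6 and 53.9 FPKM, against 65.8 and 65.0 FPKM for the summed Dnd1 and Hars entries in control, so the knockdown was not measured on its own. Of 8 ES cell markers, 8 were at 1 FPKM or more in both libraries of CDGC6, Dnd1-KD and control, and 6 in CDGC1, where Zfp42 (0.0220 and 0 FPKM) and Esrrb (0.211 and 0.140 FPKM) were below. Klf4 was only just above, at 1.052 and 1.19 FPKM in CDGC1, against 35.1 and 37.3 FPKM in control. The 8 markers summed to 1612 to 1747 FPKM in CDGC1, 2345 to 2711 in CDGC6 and 1032 to 1267 in Dnd1-KD, against 2132 to 2145 in control. Each of them was lower in both Dnd1-KD libraries than in both control libraries, as were 37.4% of all tested units. Pou5f1 made up much of these sums (531 and 457 FPKM in Dnd1-KD, against 944 and 934 FPKM in control).

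Imprinted genes are read mainly from a single parental copy, for many of them, though not all, chosen by DNA methylation laid down in the egg or the sperm. On distal chromosome 7, a control region between H19 and Igf2 lets the maternal copy make H19 and the paternal copy make Igf2, while the promoter of Kcnq1ot1 serves as the control region of a neighbouring domain in which the paternal Kcnq1ot1 RNA keeps Cdkn1c, Phlda2, Slc22a18, Tssc4 and Ascl2 silent on its own chromosome. Paternally expressed members such as Igf2 are known to raise fetal and placental growth, and maternally expressed ones such as Igf2r, Grb10, Cdkn1c and Phlda2 are known to restrain it. FPKM does not separate the parental copies, so the levels below are sums over both.

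In the deposited tables H19 shared its entry with Mir675, the microRNA gene inside the first H19 exon, so the mature products are shown here. They come from the minus strand at chr7:142577112-142577133 for the 5p arm and chr7:142577078-142577099 for the 3p arm (RefSeq, GRCm38.p6). Capitals mark the seed, bases 2 to 8, which differs between the arms.
mmu-miR-675-5p: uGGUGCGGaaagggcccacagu
mmu-miR-675-3p: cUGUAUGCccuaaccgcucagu

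RefSeq promoter windows, 250 bases before to 50 after a start site, were matched for 8 of the 10 members (all but H19 and Cdkn1c) in 12 windows. The windows below belong to Kcnq1ot1, Phlda2, Grb10 and Igf2r, which were among the members lower in both derived lines than in control. They lie on the minus strand at chr7:143296498-143296797 for Kcnq1ot1, chr7:143502475-143502774 for Phlda2, chr11:12037371-12037670 for Grb10 and chr17:12769657-12769956 for Igf2r. Capitals mark matches, on either strand, to the TATA box (spelled TATAAA), the CCAAT box (spelled by its name), the GC box (spelled GGGCGG), an E-box (spelled CACGTG) and the hexamer of ZFP57, a factor that protects imprints (spelled TGCCGC). A pair of GC boxes overlaps in the Grb10 window.
Kcnq1ot1: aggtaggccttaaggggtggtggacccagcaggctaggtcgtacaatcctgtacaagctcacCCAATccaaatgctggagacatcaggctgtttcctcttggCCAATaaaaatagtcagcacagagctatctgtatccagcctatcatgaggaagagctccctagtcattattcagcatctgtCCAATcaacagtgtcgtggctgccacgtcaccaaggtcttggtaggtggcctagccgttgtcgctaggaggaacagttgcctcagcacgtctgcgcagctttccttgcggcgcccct
Phlda2: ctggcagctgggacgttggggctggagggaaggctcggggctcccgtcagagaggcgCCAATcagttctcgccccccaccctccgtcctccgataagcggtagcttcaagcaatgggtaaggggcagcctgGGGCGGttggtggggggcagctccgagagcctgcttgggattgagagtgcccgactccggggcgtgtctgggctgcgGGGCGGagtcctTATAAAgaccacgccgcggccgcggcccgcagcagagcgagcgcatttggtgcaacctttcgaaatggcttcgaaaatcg
Grb10: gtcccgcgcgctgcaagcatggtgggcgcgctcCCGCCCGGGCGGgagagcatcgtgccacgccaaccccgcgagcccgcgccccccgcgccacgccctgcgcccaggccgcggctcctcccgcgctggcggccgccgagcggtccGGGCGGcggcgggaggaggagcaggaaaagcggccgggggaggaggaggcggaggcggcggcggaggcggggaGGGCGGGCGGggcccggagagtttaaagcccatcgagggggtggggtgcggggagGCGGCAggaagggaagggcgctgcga
Igf2r: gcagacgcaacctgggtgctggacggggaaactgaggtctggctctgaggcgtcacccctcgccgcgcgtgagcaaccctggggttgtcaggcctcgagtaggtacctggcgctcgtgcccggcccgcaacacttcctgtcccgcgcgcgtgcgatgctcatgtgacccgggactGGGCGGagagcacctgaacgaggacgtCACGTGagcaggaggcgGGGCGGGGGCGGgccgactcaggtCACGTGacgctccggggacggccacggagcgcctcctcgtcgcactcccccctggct

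The Kcnq1ot1 window held 3 CCAAT boxes and no other match. The Phlda2 window held 1 TATA box, 1 CCAAT box and 2 GC boxes. The Grb10 window shown held 5 GC boxes and 1 ZFP57 hexamer, while a second Grb10 window (chr11:12027922-12028221), not shown, held 9 CG dinucleotides and no match to any of these motifs. The Igf2r window held 3 GC boxes and 2 E-boxes. Of 32851 RefSeq windows of the same length, 13.6% held a TATA box, 37.4% a CCAAT box, 35.7% a GC box, 7.2% the E-box and 11.6% the ZFP57 hexamer. CG dinucleotides numbered 9, 26, 45 and 34 in the windows shown for Kcnq1ot1, Phlda2, Grb10 and Igf2r, where the median of all windows was 7. Slc22a18 and the joint Tssc4 entry were also lower in both derived lines, but their windows are not shown. The Slc22a18 window held 2 CG dinucleotides and no match, and the Tssc4 window held 23 and 1 CCAAT box. No motif was found in all 4 windows shown, and a match in such a window is only a description of its letters.

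Igf2 encodes insulin-like growth factor 2, the growth-promoting ligand of this group (chr7:142650766-142666816, minus strand; this and the positions below are from GENCODE vM21 on mm10). It was at 17.4 and 17.1 FPKM in CDGC1, 4.29 and 4.71 in CDGC6, 23.4 and 20.7 in Dnd1-KD, against 12.9 and 10.9 in control. No library of any group overlapped another group: Dnd1-KD stood highest, CDGC1 next, then control, and CDGC6 lowest. Means were 17.2 ± 0.183 FPKM for CDGC1, 4.50 ± 0.298 for CDGC6, 22.1 ± 1.93 for Dnd1-KD and 11.9 ± 1.47 for control (SD, n = 2 each). Igf2 was thus the only member higher in CDGC1 than in control without overlap (1.45-fold), while in CDGC6 it was 2.65-fold lower than in control. On the scale of log2(FPKM + 1) used for all differences here, these were 0.50 ± 0.11 in CDGC1 and −1.23 ± 0.11 in CDGC6 (± SE), and CDGC1 exceeded CDGC6 by 1.73 ± 0.11.

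H19 is a long noncoding RNA that is known to restrain growth and carries miR-675 (chr7:142575529-142578143, minus strand). Its joint entry with Mir675 was at 0.927 and 2.12 FPKM in CDGC1, 5.60 and 5.60 in CDGC6, 0.895 and 0.763 in Dnd1-KD, against 2.74 and 2.002 in control. CDGC6 was above every other library, Dnd1-KD was below every other library, and CDGC1 overlapped control. The mean in CDGC6 was 2.36 times that in control, and in Dnd1-KD it was 2.86-fold lower than in control. These estimates were loose: the files' interval ran over 0 to 84.8 FPKM for the first CDGC6 library and over 0 to 44.3 and 0 to 82.7 FPKM for the control libraries. Only 2.6 to 16.4 fragments were implied in the Dnd1-KD libraries, and 4.4 and 29.9 in the CDGC1 libraries. Across the 8 libraries Pearson's r between H19 and Igf2 was −0.946 (n = 8 libraries in 4 groups, a description on log2(FPKM + 1)). A value of this size was not particular to this pair, since r between H19 and the joint Tssc4 entry was −0.915. CDGC6, lowest in Igf2, was highest in H19, and Dnd1-KD was the reverse.

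Igf2r encodes the receptor that takes up IGF2 and delivers it to lysosomes (chr17:12682406-12769664, minus strand). It was at 0.761 and 0.747 FPKM in CDGC1, 16.5 and 13.2 in CDGC6, 27.3 and 30.2 in Dnd1-KD, against 16.9 and 17.6 in control. CDGC1 stood far below all other libraries, CDGC6 lay just under control, and Dnd1-KD lay above it. Group means were 0.754 ± 0.00965 FPKM for CDGC1, 14.8 ± 2.35 for CDGC6, 28.7 ± 2.09 for Dnd1-KD and 17.3 ± 0.455 for control (SD, n = 2 each). The CDGC1 mean was 22.9-fold lower than control (log2 difference −3.38 ± 0.12) and 19.7-fold lower than CDGC6. The CDGC6 mean was within 1.16-fold of control. Airn, the noncoding RNA that overlaps Igf2r and silences its paternal copy, was at 0.0291 to 0.644 FPKM in all 8 libraries. Its values were highest in Dnd1-KD (0.644 and 0.551 FPKM), and the file interval reached 0 in every library of the other groups. No source here says that reads were counted by strand, so fragments of such overlapping pairs cannot be told apart.

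Grb10 encodes an adaptor that dampens insulin and IGF1 receptor signalling (chr11:11930508-12038683, minus strand). It was at 0.771 and 0.517 FPKM in CDGC1, 7.56 and 10.5 in CDGC6, 55.3 and 55.3 in Dnd1-KD, against 45.1 and 45.0 in control. The groups were again fully separate, in the order Dnd1-KD, control, CDGC6 and CDGC1. Its CDGC1 mean was 69.9-fold lower than control (−4.81 ± 0.15), and its CDGC6 mean was 5.003-fold lower (−2.22 ± 0.15). Between the derived lines, CDGC1 was 13.98-fold lower than CDGC6. Grb10 in Dnd1-KD was 1.23 times control.

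**Figure D1:**
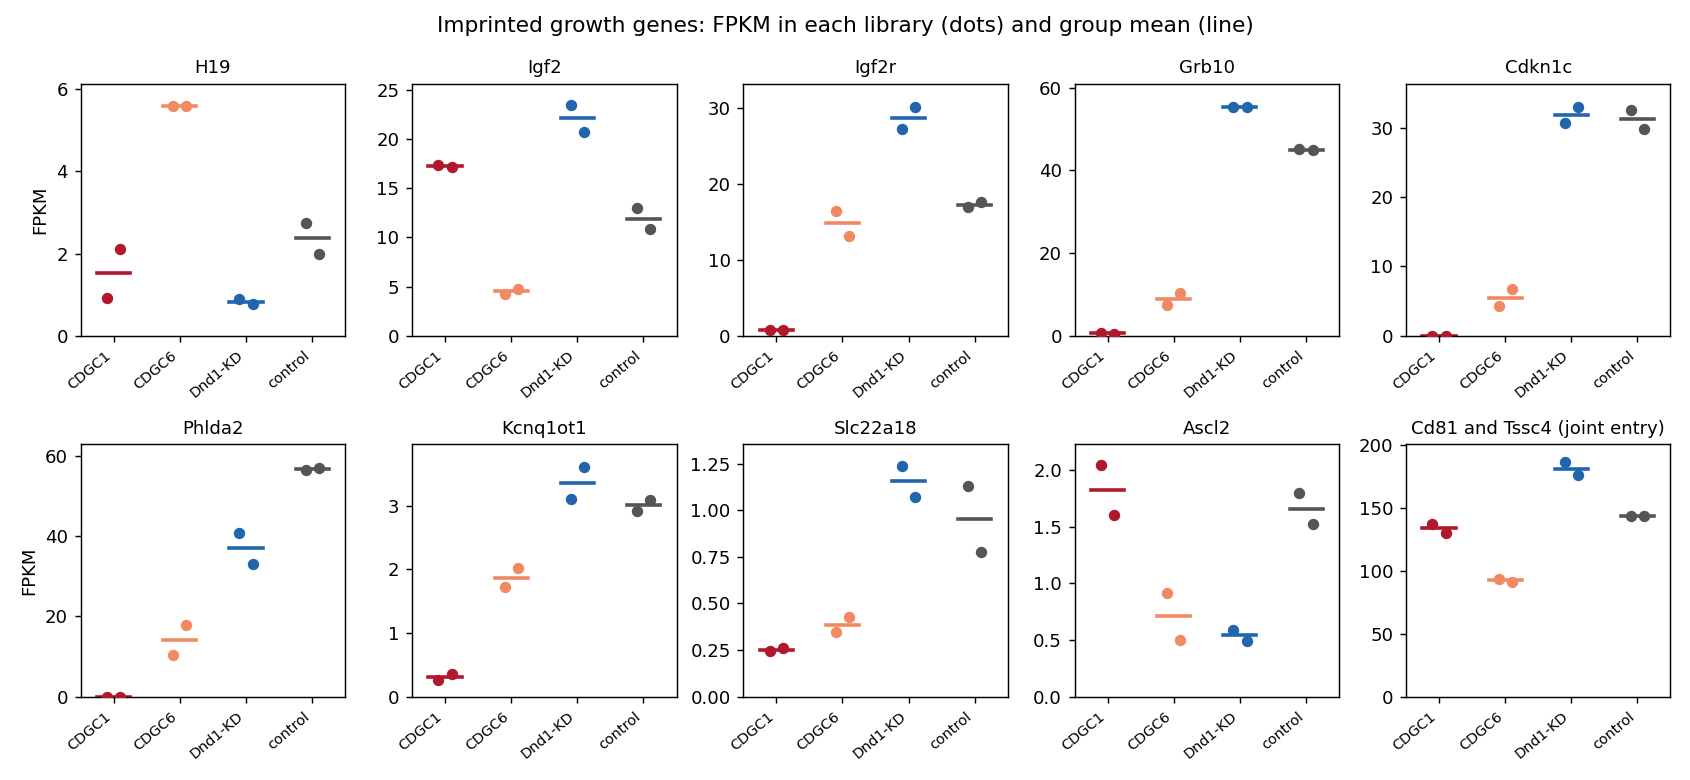
FPKM (y axis, linear, each panel with its own scale) of the 10 members in the 4 groups (x axis), with 1 dot for each library and a line at the mean of the 2 libraries. Igf2r, Grb10, Cdkn1c, Phlda2 and Kcnq1ot1 are all below 1 FPKM in CDGC1, while Igf2 in CDGC1 (17.4 and 17.1 FPKM) lies above control (12.9 and 10.9 FPKM).

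Kcnq1ot1 is the noncoding RNA of the second domain (chr7:143203458-143296549, minus strand), antisense to Kcnq1. It was at 0.264 and 0.361 FPKM in CDGC1, 1.72 and 2.02 in CDGC6, 3.11 and 3.61 in Dnd1-KD, against 2.92 and 3.08 in control. Its CDGC1 mean was 9.61-fold lower than control (−1.61 ± 0.11), and its CDGC6 mean was 1.61-fold lower (−0.48 ± 0.11). Kcnq1, the potassium channel gene that spans it, was listed at 0 in all 8 libraries. Of the members that Kcnq1ot1 is known to silence in cis, Cdkn1c, Phlda2 and Slc22a18 were also lower in both derived lines than in control, as the next values show. The joint Tssc4 entry was lower in both as well, but by only 1.07-fold in CDGC1, and Ascl2 overlapped control in CDGC1.

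Cdkn1c encodes p57, an inhibitor of cyclin-dependent kinases (chr7:143458339-143461050, minus strand). CDGC1 was listed at 0 in 1 library and at 0.0333 FPKM in the other, which is 1.0 implied fragment. It was at 4.31 and 6.71 FPKM in CDGC6, 30.7 and 33.0 in Dnd1-KD, against 32.6 and 29.8 in control. Both derived lines lay below both ES groups without overlap, whereas Dnd1-KD and control overlapped. The CDGC6 mean was 5.66-fold lower than control (−2.33 ± 0.18).

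Phlda2 encodes a pleckstrin homology domain protein that limits placental growth (chr7:143501545-143503150, minus strand). It was listed at 0 in both CDGC1 libraries. It was at 10.3 and 17.7 FPKM in CDGC6, 40.8 and 33.1 in Dnd1-KD, against 56.5 and 57.0 in control. The groups followed the order control, Dnd1-KD, CDGC6 and CDGC1 with no overlap, so Phlda2 was lower than control in all the other groups. The CDGC6 mean was 4.05-fold lower than control (−1.99 ± 0.23) and the Dnd1-KD mean 1.54-fold lower (−0.61 ± 0.23). The first control value carried a file interval of 0 to 6044 FPKM. A value listed at 0 can be a failed estimate, and no entry without a gene name lay over Cdkn1c or Phlda2 in any library.

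Slc22a18, a transporter gene between Cdkn1c and Phlda2 (chr7:143473736-143499334, plus strand), was low everywhere. It was at 0.243 and 0.261 FPKM in CDGC1, 0.347 and 0.424 in CDGC6, 1.24 and 1.07 in Dnd1-KD, against 1.13 and 0.779 in control. Both derived lines were below both ES groups, which overlapped each other. Only 7.4 to 17.2 fragments were implied in the derived-line libraries. The difference of −0.15 ± 0.11 between CDGC1 and CDGC6 turned to 0.43 under quantile normalization.

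Ascl2 encodes a basic helix-loop-helix factor needed for the trophoblast (chr7:142966829-142969264, minus strand). It was at 2.05 and 1.61 FPKM in CDGC1, 0.919 and 0.502 in CDGC6, 0.590 and 0.495 in Dnd1-KD, against 1.80 and 1.52 in control. CDGC1 overlapped control, and CDGC6 overlapped Dnd1-KD below them. Ascl2 was the only member of the Kcnq1ot1 domain with its own entry that was not lower in CDGC1 than in control. Trophoblast markers summed to 74.3 to 89.0 FPKM in CDGC1, 13.7 to 21.0 in CDGC6, 28.1 to 30.7 in Dnd1-KD, against 18.6 to 19.7 in control, mostly through Eomes in CDGC1 (68.4 and 80.0 FPKM). Of those 10 markers, 3 were at 1 FPKM or more in both libraries of CDGC1, 3 in CDGC6 and 6 in Dnd1-KD, against 5 in control. Tpbpa and Prl3d1 were at 0 in all libraries. Fibroblast markers summed to 49.1 to 60.7 FPKM in CDGC1, 40.4 to 49.2 in CDGC6 and 79.5 to 80.2 in Dnd1-KD, against 20.5 to 22.8 in control, with 7, 7, 5 and 4 of 10 at 1 FPKM or more. The Dnd1-KD sum came mostly from Acta2 (64.9 and 62.7 FPKM, against 10.3 and 12.0 FPKM in control). Extraembryonic endoderm markers summed to 11.8 to 46.7 FPKM in CDGC1 (Foxa2 38.6 FPKM in its second library), 10.0 to 13.4 in CDGC6 and 14.9 to 15.3 in Dnd1-KD, against 9.09 to 9.22 in control, with Ttr at 0 in all. Testis somatic markers summed to at most 9.90 FPKM in any library, and no leukocyte marker with its own entry reached 1 FPKM in both libraries of a group. The part of these markers in the member levels was not tested, and in bulk RNA fewer cells of a type and less RNA per cell cannot be told apart.

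Tssc4 encodes a protein that helps assemble the splicing machinery (chr7:143069249-143071093, plus strand). In 7 of 8 libraries the files joined it with Cd81, a tetraspanin gene, so only the joint value can be compared. The joint value was 137 and 129.8 FPKM in CDGC1, 93.5 and 90.9 in CDGC6, 186 and 176 in Dnd1-KD, against 143 and 143 in control. CDGC6 was lowest and Dnd1-KD highest, with no overlap between groups. In the second CDGC6 library, where the entries were separate, Tssc4 was at 14.4 and Cd81 at 76.5 FPKM, so the joint value rested mostly on Cd81 there.

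Counting members by whether the libraries of a pair of groups overlapped, CDGC1 was lower than control in 7 of 10, higher in 1 (Igf2) and overlapping in 2 (H19 and Ascl2), where 41.5% of all tested units were lower and 37.2% higher without overlap. CDGC6 was lower than control in 9 and higher in 1 (H19), where 37.3% of all units were lower and 34% higher. Dnd1-KD was higher than control in 5 (Igf2, Igf2r, Grb10, Kcnq1ot1 and the joint Tssc4 entry) and lower in 3 (H19, Phlda2 and Ascl2), where 42.2% of all units were higher and 37.4% lower. CDGC1 was higher than CDGC6 in 3 (Igf2, Ascl2 and the joint Tssc4 entry) and lower in 7, where 35.4% of all units were higher and 37.4% lower. These counts describe genes that were chosen on these values. The comparisons with control all use the same 2 control libraries.

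**Figure D2:**
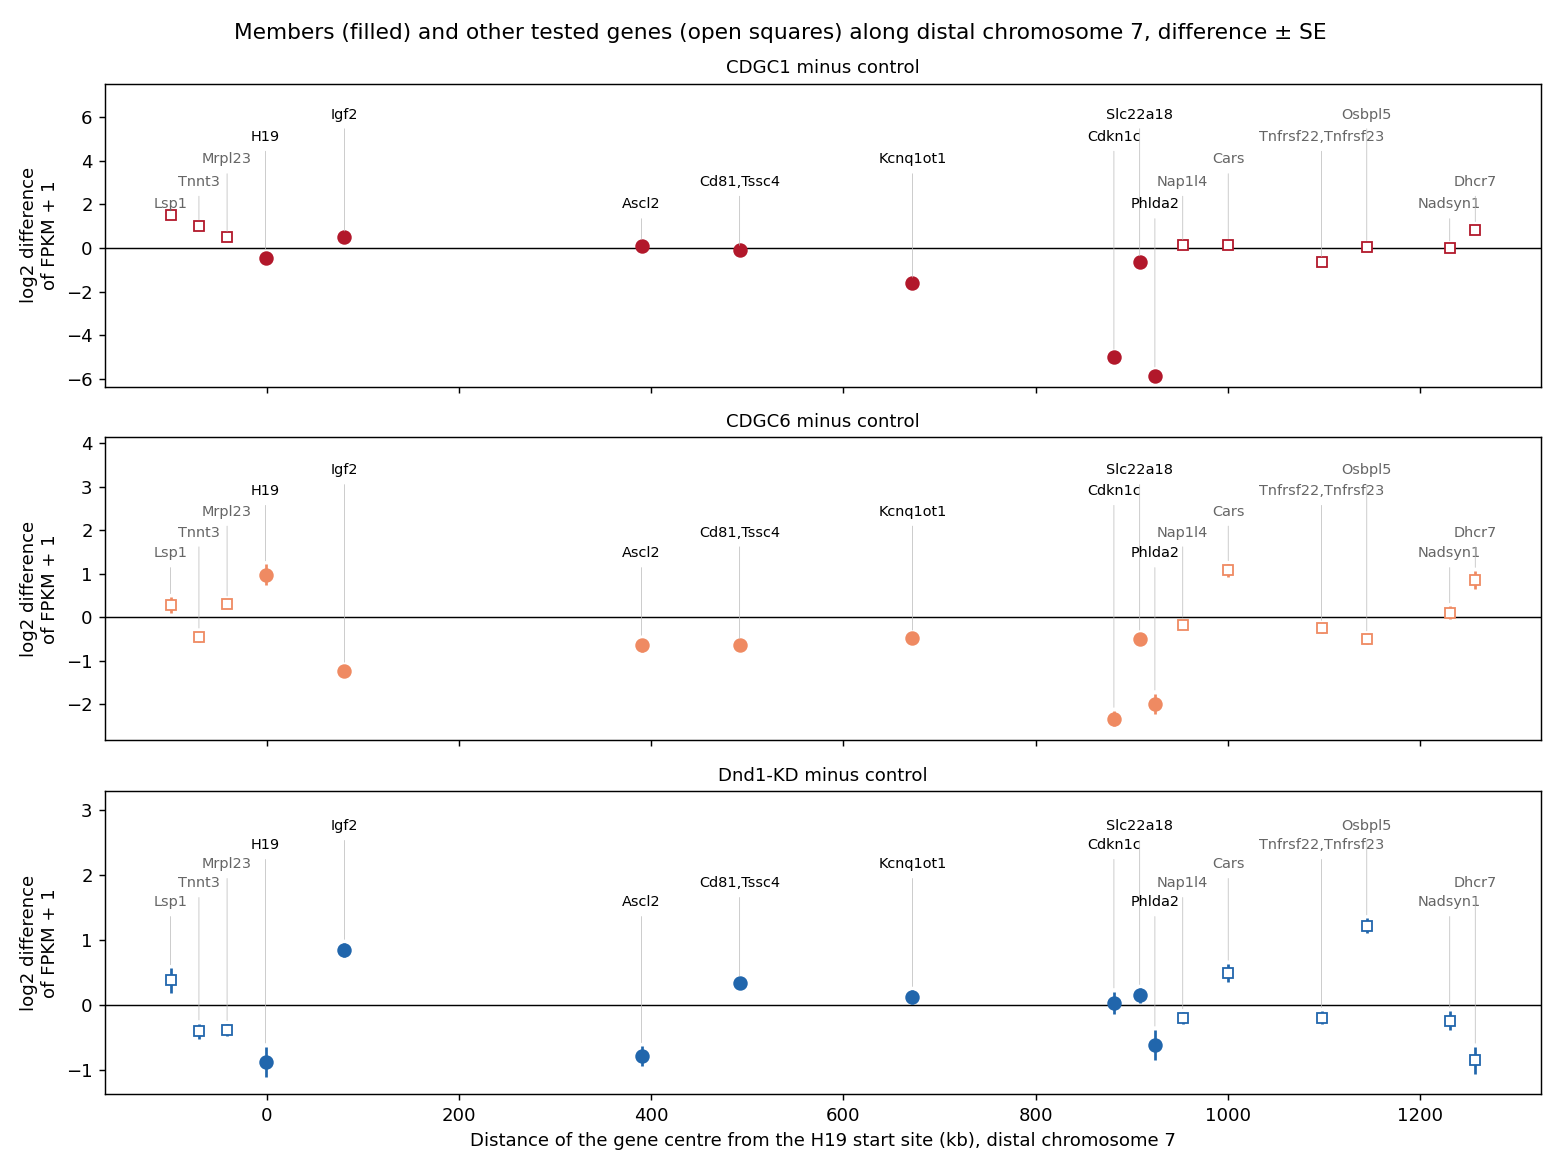
Log2 difference of FPKM + 1 from control (y axis, ± SE, each panel with its own scale) against the distance of each gene's centre from the H19 start (x axis, kb), for CDGC1, CDGC6 and Dnd1-KD from top to bottom; filled points are members and open squares are neighbours. Among the members drawn, Cdkn1c and Phlda2 are the lowest in CDGC1 (−4.98 and −5.85) and in CDGC6 (−2.33 and −1.99), and the size of the CDGC1 values, from libraries at or near 0, depends on the added 1 FPKM.

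Neighbours of the members were set beside them as a list of 35 genes at the same loci, of which 18 units could be tested. In CDGC1, 5 were higher and 4 lower than control (limma with Benjamini-Hochberg adjustment over all units, of which 23.5% were higher and 27% lower), with a median log2 difference of 0.09 against −0.03 over all units. Cobl, an actin nucleator gene beside Grb10, fell to 1.27 and 1.68 FPKM in CDGC1, against 17.2 and 17.1 FPKM in control (−2.88 ± 0.13, adjusted p from limma 1.98e-05). Pnldc1, an exonuclease gene near Igf2r that trims small RNAs of the germ line, fell to 2.86 and 3.16 FPKM in CDGC1, against 11.9 and 15.1 FPKM in control (−1.85 ± 0.13, adjusted p from limma 9.81e-05). Tnnt3, a muscle troponin gene near H19, rose to 2.57 and 1.96 FPKM in CDGC1, against 0.689 and 0.542 FPKM in control (1.01 ± 0.12, adjusted p from limma 0.000757). Against CDGC6, CDGC1 was higher in 4 and lower in 4 of the 18 (23% and 24.1% of all units), with Cobl (−2.23 ± 0.13) and Pnldc1 (−1.51 ± 0.13) lower and Tnnt3 higher (1.46 ± 0.12; adjusted p from limma 7.07e-05, 0.000280 and 0.000232 in that order).

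In CDGC6, 2 of the 18 neighbours were higher and 3 lower than control by limma (8.46% and 10.2% of all units). With limma these 5 calls became 0 without the first control library, where 5 units had an unadjusted p below 0.05, 1 without the second control library, 3 without either CDGC6 library and 2 without either Dnd1-KD library. Cars, a cysteinyl-tRNA synthetase gene beyond Phlda2, was at 53.3 and 64.2 FPKM in CDGC6, against 26.5 and 28.004 FPKM in control (1.07 ± 0.14, adjusted p from limma 0.00680, or 0.0534 without the first control library). Cobl (−0.65 ± 0.13, adjusted p 0.0213) and Osbpl5, a lipid-transfer gene (−0.51 ± 0.11, adjusted p 0.0304), were lower in CDGC6 by limma, but Cobl did not pass when any 1 library of either group was left out, and Osbpl5 did not pass under 9 of 14 alternatives. In Dnd1-KD, 2 were higher and 6 lower by limma (20.7% and 15.5% of all units). These 8 calls became 2 without either control library, and 5 and 3 without the first and the second Dnd1-KD library. Osbpl5 rose to 6.22 and 5.89 FPKM in Dnd1-KD, against 1.97 and 2.10 FPKM in control (1.22 ± 0.11, adjusted p from limma 0.00158). Pnldc1 was at 6.11 and 6.25 FPKM in Dnd1-KD, against 11.9 and 15.1 FPKM in control (−1.01 ± 0.13, adjusted p from limma 0.00319). Mrpl23, a mitochondrial ribosomal protein gene beside H19, was lower (−0.39 ± 0.09, adjusted p from limma 0.0226, and up to 0.114 with a library left out). For Mrpl18, 1 of the 6, the files gave 0 FPKM in each Dnd1-KD library and in 1 CDGC1 library, against 135 and 153 FPKM in control.

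Imprinted genes of other loci, some of them elsewhere on chromosomes 7 and 11, were a second list, of 46 genes and 33 tested units. In CDGC1, 17 were higher and 9 lower than control by limma (23.5% and 27% of all units), with a median log2 difference of 0.53 against −0.03 over all units. Slc38a4, an amino acid transporter gene, fell to 0.0565 and 0.0228 FPKM in CDGC1, against 66.5 and 62.8 FPKM in control (−5.98 ± 0.16, adjusted p from limma 4.39e-06). Gab1, an adaptor of growth factor receptors, fell to 4.51 and 4.64 FPKM in CDGC1, against 79.9 and 77.0 FPKM in control (−3.83 ± 0.06, adjusted p from limma 1.36e-06). Mirg, a noncoding host of microRNAs in the Dlk1 to Dio3 cluster, fell to 0.0321 and 0.103 FPKM in CDGC1, against 25.2 and 23.8 FPKM in control (−4.58 ± 0.14, adjusted p from limma 8.25e-06). Named after its values were seen, Meg3 of the same cluster was at 0.122 and 1.29 FPKM in CDGC1, against 100.8 and 96.7 FPKM in control, and Peg3, a paternally expressed zinc finger gene, at 156 and 143 FPKM in CDGC1, against 15.3 and 15.6 FPKM in control. Against CDGC6, CDGC1 was higher in 17 and lower in 8 (23% and 24.1% of all units), with Gab1 (−3.14 ± 0.06), Mirg (−5.46 ± 0.14) and Slc38a4 (−5.16 ± 0.16) lower (adjusted p from limma 3.29e-06, 6.05e-06 and 9.73e-06 in that order).

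In CDGC6, 13 of the 33 were higher and 5 lower than control by limma (8.46% and 10.2% of all units), with a median log2 difference of 0.38 against −0.01 over all units. These 18 calls became 6 without the first and 6 without the second control library, and 11 without the second CDGC6 library. Magel2, a paternally expressed gene of the Prader-Willi region, rose to 6.06 and 4.73 FPKM in CDGC6, against 0.741 and 0.640 FPKM in control (1.91 ± 0.14, adjusted p from limma 0.00120). Its neighbour Peg12 was at 1.83 and 1.84 FPKM in CDGC6, against 0.733 and 0.844 FPKM in control (0.66 ± 0.09, adjusted p from limma 0.00786, and up to 0.0749 without a control library). Gab1 was lower in CDGC6 too, at 46.7 and 49.4 FPKM, against 79.9 and 77.0 FPKM in control (−0.69 ± 0.06, adjusted p from limma 0.00211). In Dnd1-KD, 6 were higher and 2 lower by limma (20.7% and 15.5% of all units), with a median of −0.03 against 0.02 over all units. These 8 calls became 3 without the first control library and 4 without the second. Higher in Dnd1-KD were Sgce, a sarcoglycan gene (0.90 ± 0.10), Ndn, a growth suppressor of the Prader-Willi region (0.64 ± 0.08), and Gnas, which encodes the stimulatory G protein alpha subunit (0.69 ± 0.11), at adjusted p from limma of 0.00230, 0.00353 and 0.00679 in that order. The adjusted p of Gnas was 0.0520 without the first control library.

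**Figure D3:**
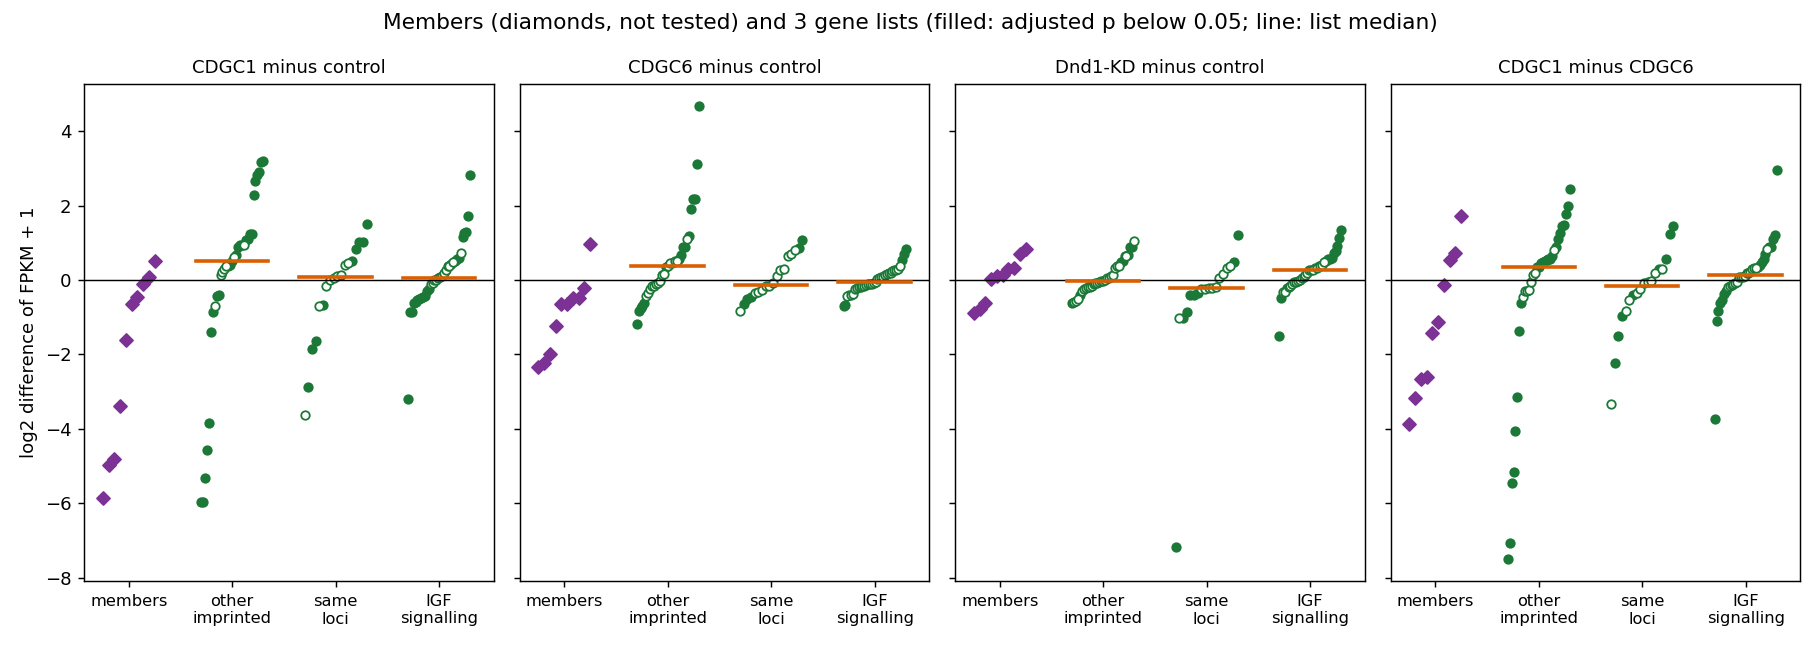
Log2 difference of FPKM + 1 (y axis) of every member (diamonds, not tested) and every tested unit of 3 gene lists (circles, filled where the limma adjusted p was below 0.05), 1 panel for each of the 4 comparisons, with a line at each list's median. In CDGC1 against control the other imprinted genes have a median of 0.53, where the median of all tested units is −0.03.

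The third list held 36 genes of IGF signalling, the pathway that several members feed into or restrain, and 34 were tested. In CDGC1, 9 were higher and 12 lower than control by limma (23.5% and 27% of all units; median 0.06 against −0.03 over all units). Igf2bp3, which encodes an RNA-binding protein that binds Igf2 mRNA, fell to 1.97 and 1.58 FPKM in CDGC1, against 24.1 and 25.01 FPKM in control (−3.21 ± 0.09, adjusted p from limma 6.66e-06). Igfbp3, an IGF-binding protein of the extracellular space, rose to 770.1 and 498 FPKM in CDGC1, against 86.0 and 87.5 FPKM in control (2.82 ± 0.24, adjusted p from limma 0.000235). Eif4ebp1, a brake on translation that mTOR releases, was at 109.7 and 109.0 FPKM in CDGC1, against 194 and 203 FPKM in control (−0.85 ± 0.08, adjusted p from limma 0.000322). Against CDGC6, CDGC1 was higher in 10 and lower in 7 (23% and 24.1% of all units), with Igf2bp3 (−3.74 ± 0.09) and Eif4ebp1 (−1.10 ± 0.08) lower and Igfbp3 higher (2.97 ± 0.24; adjusted p from limma 5.84e-06, 0.000157 and 0.000256 in that order).

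In CDGC6, 3 of the 34 were higher and 3 lower than control by limma (8.46% and 10.2% of all units; median −0.05 against −0.01 over all units). With limma these 6 calls became 0 without the first or the second control library, where 6 and 10 units had an unadjusted p below 0.05, and 2 without the second CDGC6 library. Pik3cb, a catalytic subunit of phosphoinositide 3-kinase, was lower in CDGC6 (−0.66 ± 0.11, adjusted p 0.0118), and Igf2bp3 (0.54 ± 0.09, adjusted p 0.0154) and Igf2bp2 (0.71 ± 0.13, adjusted p 0.0179) were higher by limma. Each of these 3 lost its call without either of the control libraries, with adjusted p up to 0.0921, 0.113 and 0.104 in the same order. In Dnd1-KD, 11 were higher and 3 lower than control by limma (20.7% and 15.5% of all units; median 0.27 against 0.02 over all units). These 14 calls became 6 without either control library and 8 without the second Dnd1-KD library. Igf1r, the receptor through which IGF1 and IGF2 signal, rose to 10.9 and 15.2 FPKM in Dnd1-KD, against 5.08 and 5.61 FPKM in control (1.13 ± 0.17, adjusted p from limma 0.00570). Irs1, its docking protein, rose to 5.13 and 4.88 FPKM in Dnd1-KD, against 1.25 and 1.51 FPKM in control (1.34 ± 0.15, adjusted p from limma 0.00226). Foxo3, a transcription factor held in check by the pathway, rose to 28.6 and 30.3 FPKM in Dnd1-KD, against 14.7 and 15.4 FPKM in control (0.92 ± 0.08, adjusted p from limma 0.00149).

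Units at 0 in any library, Cdkn1c and Phlda2 among them, and predicted or clone-named genes were left out here, which gave 10128 single-symbol units. Their levels were compared with each member by Pearson's r of log2(FPKM + 1) over the 8 libraries. Because these form 4 groups of 2, r describes mostly the group levels, and no p is given. Nearest to Cdkn1c were Grb10 (0.998), Gadd45a (0.995) and Rnd1 (0.994), so a member from another chromosome followed it most closely. Nearest to Grb10 were Gadd45a (0.997) and Inpp5d (0.996). Nearest to Phlda2 was Zfp280b (0.996), to Kcnq1ot1 Icam1 (0.997), to Igf2r Suv420h1 (0.997), to H19 Oas1g (0.988), to Igf2 Mbnl1 (0.988), to Ascl2 Cdc6 (0.985), to Slc22a18 Ttbk1 (0.987) and to the joint Tssc4 entry Mfge8 (0.987). Among the members themselves, r between Cdkn1c and Kcnq1ot1 was 0.985 and between Cdkn1c and Phlda2 0.979, while r between Igf2 and Cdkn1c was 0.09.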

How the data were processed

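RNA-seq of 8 libraries was used, 2 for each of CDGC1, CDGC6, Dnd1-KD and control. Per the labels, RNA was taken with RNeasy kits and TruSeq v2 libraries were made. The deposited FPKM values are, per the file headers, from Cufflinks gene tracking tables, 1 for each library, with an interval around each value. TopHat2, Bowtie, Cufflinks, Cuffdiff and mm10 are named in the submitters' processing notes, without versions or roles.

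Symbols that any library joined were treated as 1 unit, with FPKM summed over entries. Entries without a gene name, 76.8% to 85.6% of a library's summed FPKM, and small RNA genes were left out, and 24 names that had become spreadsheet dates were treated as found. The test covered 11894 units that reached 1 FPKM in 2 or more libraries; 658 of them hold several symbols and 639 have a library at 0. Read counts are not used here; fragments were implied from each interval, taken as 2 SD on each side.

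limma 3.58.1 in R 4.3.3 was fitted on log2(FPKM + 1), with the 4 group means estimated jointly from the 8 libraries and a trended prior variance (eBayes), two-sided, Benjamini-Hochberg adjustment and a threshold of 0.05, and was tested on simulated data. The 4 comparisons share libraries. Members and gene lists were chosen with earlier results of these data known, and members get no test. Named from each list, in each comparison, were up to 3 called units with the smallest p, 1 symbol and no library at 0. Alternatives were a pseudocount of 0.1, no filter or one of 5 FPKM, quantile normalization, only the compared groups, a replicate block, the highest entry of a unit, and each library left out. Positions are from GENCODE vM21. Python 3.11.15, pandas 2.3.3, numpy 2.4.6 and matplotlib 3.10.9 were used.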

Additional observations from a re-analysis of the deposited data

Results flagged for a closer look

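Igf2 lay on opposite sides of control in the derived lines, with log2 differences of 0.50 in CDGC1 and −1.23 in CDGC6; as a member chosen on these values, the difference was not tested. Tnnt3, near H19, was 1.01 above control in CDGC1 and −0.45 from it in CDGC6, and CDGC1 exceeded CDGC6 by 1.46 (limma, adjusted p = 0.000232). Its CDGC6 difference from control was near the threshold (limma, adjusted p = 0.0451). That difference rested on 0.190 and 0.178 FPKM in CDGC6, against 0.689 and 0.542 FPKM in control, all below 1 FPKM. Mirg was −4.58 from control in CDGC1 and 0.89 in CDGC6, and CDGC1 differed from CDGC6 by −5.46 (limma, adjusted p = 6.05e-06). Igf2bp3 was −3.21 from control in CDGC1 and 0.54 in CDGC6, and CDGC1 differed from CDGC6 by −3.74 (limma, adjusted p = 5.84e-06). All 3 of these tested differences have both libraries of each line on the stated side.

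Entries without a gene name, which no comparison used, lay inside a pair of members: 18.9 FPKM inside Tssc4 in the second CDGC6 library and 5.12 FPKM inside Igf2r in the second Dnd1-KD library. No such entry was listed at those loci in the control libraries.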

How the results depend on the processing

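Of the 588 recomputed member differences, 44 were counted as moved beyond the spread between libraries, mainly with a pseudocount of 0.1 (23 of 40) or quantile normalization (17 of 40). Only 1 reversed: Slc22a18 in CDGC1 minus CDGC6, 0.43 under quantile normalization. That the other 543 stayed within the spread was largely fixed by the method. Filters, the choice of groups fitted and the replicate block cannot change a difference of group means. Leaving out 1 library can shift it by at most that spread. The 1 move counted without the first CDGC6 library and the 1 without the first control library therefore only equalled the spread. The signs of Cdkn1c in Dnd1-KD minus control and of Ascl2 in CDGC1 minus control, whose libraries overlap, changed when 1 library was left out. With only the compared groups fitted, the other imprinted list had 13 calls in Dnd1-KD minus control (8 in the main fit) and the IGF list 11 in CDGC1 minus CDGC6 (17 in the main fit). With the filter of 5 FPKM, the neighbours had 3 calls in CDGC6 minus control (5 in the main fit). Leaving out each library in turn gave 1363 to 4929 calls over all units in Dnd1-KD minus control (4309 with all libraries), 4087 to 6062 in CDGC1 minus control (6007), 422 to 2903 in CDGC6 minus control (2220) and 4464 to 5719 in CDGC1 minus CDGC6 (5609). In the same order of comparisons, the neighbours had 2 to 9, 7 to 10, 0 to 7 and 7 to 9 calls, the other imprinted genes 3 to 10, 21 to 27, 6 to 21 and 23 to 26, and the IGF list 6 to 16, 15 to 22, 0 to 6 and 12 to 17. The lowest limma counts in Dnd1-KD and CDGC6 minus control came without a control library, and for some lists they were equal without either one. The remaining library of such a group was assumed to vary like the other groups. The labels give the groups the same replicate numbers but no pairing (correlations of the deviations of same-numbered libraries 0.12, −0.01, 0.02 and 0.003), and with the replicate number as a block the calls over all units were 3923, 5781, 1654 and 5367. Loose file intervals limit H19 and the first control value of Phlda2, few implied fragments limit Slc22a18, and values at or near 0 limit Cdkn1c and Phlda2 in CDGC1.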
